A study of Mus musculus with 16 samples.

Results

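The matrix metalloproteinases, the ADAMTS proteases and the TIMPs, a family of inhibitors, were followed across age in mouse gastrocnemius, the large calf muscle. Members were the genes whose probes carried an Mmp, Adamts or Timp1 to Timp4 symbol, which gave 45 genes of the 37167 gene names on the array: 22 Mmp, 19 Adamts and 4 Timp genes, on 59 probes. The mice were C57Bl/6J females without treatment, at 4 ages: 3 months, 15 months, 24 months and 29 months. Each age had 4 samples, each on an Agilent 1-colour Cy3 array of its own. No group carried a genotype, transgene or agent, and the 3-month samples serve as the youngest reference. The labels do not say that samples of the same age are different animals. The p-values therefore rest on sample-to-sample spread, part or all of which may be technical.

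These proteases are zinc enzymes that cut the proteins outside cells. Matrix metalloproteinases cleave collagens, laminins and other matrix proteins, and ADAMTS enzymes cleave proteoglycans or trim procollagens. TIMPs block matrix metalloproteinases by sitting in the active site, and Timp3 also inhibits ADAMTS enzymes. In muscle much of this transcription belongs to fibroblasts and other cells between the fibres. Most of the enzymes are made as inactive precursors, so a transcript level is not an enzyme activity.

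Levels are log2 processed signals minus the array's 75th percentile, and are called relative log2 levels. A level of 0 is that percentile, and levels of different probes are not compared. A gene was tested if some age had a probe of it well above background on each of its 4 arrays, and was represented by its brightest such probe. Differences were tested with limma over 21777 genes with Benjamini-Hochberg adjustment, and a gene was called at adjusted p under 0.05. Between 48.0% and 60.9% of spots were well above background and none was saturated, and the number of arrays, 4 per age, and their spread limit the precision. The 3- and 15-month arrays lay on 1 slide and the 24- and 29-month arrays on another, so in comparisons across slides age and slide cannot be told apart. All 10 muscle fibre markers were measured, and limma called 0 of them in each of the 5 age comparisons, with 2 at unadjusted p under 0.05 from 3 to 24 months and 0 in the others. In whole muscle, fewer cells of a type and less RNA per cell cannot be told apart.

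Of the 45 genes, 20 were detected well enough to be tested: 7 Mmp, 9 Adamts and all 4 Timp genes. This share, 44.4%, compares with 66.4% of the 20122 genes with a RefSeq symbol on the array. None of the 4 interstitial collagenases was tested. Mmp1a, Mmp1b, Mmp8, the collagenase of neutrophils, and Mmp13 were above background on 0 of 16 arrays. Of the gelatinases, which digest denatured collagen, Mmp2 was above background on all 16 arrays and Mmp9 on 0. Of the stromelysins and matrilysin, only Mmp11 was tested, while Mmp3 was above background on 4 arrays, Mmp10 on 3 and Mmp7 on 0. Of the 6 membrane-type enzymes, which work at the cell surface, Mmp14, Mmp15, Mmp17 and Mmp24 were tested, and Mmp16 and Mmp25 were above background on 0 arrays. Of the remaining Mmp genes only Mmp23 was tested. Mmp12, the elastase of macrophages, reached background on 6 arrays and Mmp19 on 1, whereas Mmp20, Mmp21 and Mmp28 did so on 0.

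Among the ADAMTS genes, 5 of the 7 that cleave proteoglycans such as versican and aggrecan were tested, namely Adamts1, Adamts5, Adamts8, Adamts9 and Adamts15. Adamts4 was above background on 1 array and Adamts20 on 0. Of the 3 enzymes that remove the amino propeptide of fibrillar procollagens, Adamts2 and Adamts14 were tested and Adamts3 was above background on 0 arrays. Of the other 9, Adamts10 and Adamts12 were tested. Adamts18 was above background on 2 arrays and Adamts17 on 1, and Adamts6, Adamts7, Adamts13, Adamts16 and Adamts19 on 0. Altogether 18 of the 25 untested genes had no array above background and the other 7 had 1 to 6, so for these genes the arrays give no comparison between ages. Of the 20 tested genes, 16 were above background on all 16 arrays. The exceptions were Mmp14 with 14 arrays and Adamts10, Adamts12 and Adamts15 with 15 each.

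**Figure D1:**
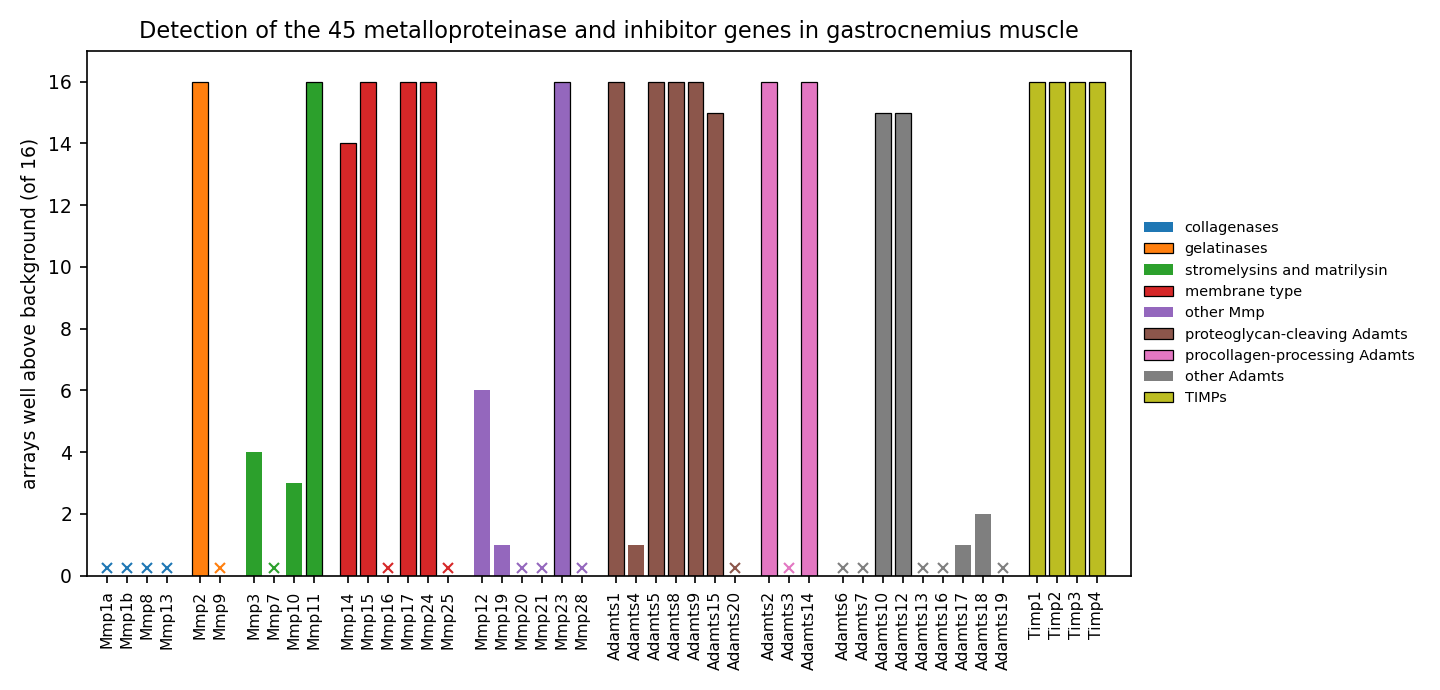
Number of the 16 arrays (vertical axis) on which each of the 45 genes (horizontal axis, coloured by role) was well above background; crosses mark genes with 0 arrays and black outlines mark the 20 genes tested. All 4 TIMPs stand at 16 arrays and all 4 collagenases at 0.

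The genes without usable signal included a whole block of the genome. In the RefSeq gene order of assembly GRCm38.p6, 10 Mmp genes follow one another on chromosome 9 with no other protein-coding gene between them: Mmp13, Mmp12, Mmp1b, Mmp3, Mmp1a, Mmp10, Mmp8, Mmp27, Mmp20 and Mmp7. Mmp27 had no probe. None of the other 9 passed the filter on background, against 7 of the 13 Mmp genes elsewhere in the genome.

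RefSeq promoter sequences of the same assembly were found for 31 of the 45 genes, 14 of them tested genes. The windows of 250 bases before the transcription start were searched on both strands for the AP-1 motif TGANTCA, the PEA3 motif AGGAAG, the Sp1 motif GGGCGG and the FOXO motif GTAAACA, and a gene with several starts counted if any of its windows held the motif. The windows of the 3 genes called between ages and of a stromelysin and a collagenase of the chromosome 9 block are shown, to set detected beside undetected members. Capitals mark matches to any of the 4 motifs, letters run 5′ to 3′ in the direction of transcription, and the last base is the one before the start.
Mmp11 (chr10:75932503-75932752, minus strand): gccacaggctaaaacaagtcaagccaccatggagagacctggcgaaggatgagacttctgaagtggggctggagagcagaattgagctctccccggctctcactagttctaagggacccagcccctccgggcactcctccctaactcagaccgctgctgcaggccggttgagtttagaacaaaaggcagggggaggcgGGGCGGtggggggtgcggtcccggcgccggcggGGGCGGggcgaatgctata
Mmp15 (chr8:95352046-95352295, plus strand): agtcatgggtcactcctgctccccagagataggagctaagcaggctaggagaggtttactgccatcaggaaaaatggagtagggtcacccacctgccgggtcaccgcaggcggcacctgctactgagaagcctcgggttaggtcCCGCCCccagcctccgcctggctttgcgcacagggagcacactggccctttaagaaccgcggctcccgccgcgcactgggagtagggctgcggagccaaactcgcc
Adamts14 (chr10:61273420-61273669, minus strand): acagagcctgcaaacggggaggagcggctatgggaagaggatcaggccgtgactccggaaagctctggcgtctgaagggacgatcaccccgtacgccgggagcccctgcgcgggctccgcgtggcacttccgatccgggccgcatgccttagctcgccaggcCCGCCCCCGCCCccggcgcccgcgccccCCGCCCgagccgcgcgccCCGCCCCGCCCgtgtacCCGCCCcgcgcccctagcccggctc
Mmp3 (chr9:7445572-7445821, plus strand): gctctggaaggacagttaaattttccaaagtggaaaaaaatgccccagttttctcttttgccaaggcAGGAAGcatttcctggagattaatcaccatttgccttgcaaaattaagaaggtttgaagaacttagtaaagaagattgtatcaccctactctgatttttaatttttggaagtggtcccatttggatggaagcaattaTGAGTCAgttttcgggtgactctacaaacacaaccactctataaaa
Mmp13 (chr9:7272264-7272513, plus strand): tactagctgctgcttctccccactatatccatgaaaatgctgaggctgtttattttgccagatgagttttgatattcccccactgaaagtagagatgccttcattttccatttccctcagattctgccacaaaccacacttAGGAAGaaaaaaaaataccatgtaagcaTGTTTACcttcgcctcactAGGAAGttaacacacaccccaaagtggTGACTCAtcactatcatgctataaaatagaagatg

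The first 3 windows held matches to the Sp1 motif alone, with 2 in Mmp11, 1 in Mmp15 and 6 in Adamts14, where a pair of matches shared 1 base. The Mmp3 window held 1 AP-1 and 1 PEA3 match. The Mmp13 window held 1 AP-1, 2 PEA3 and 1 FOXO match. The AP-1 match of Mmp3 spans bases -46 to -40 from the start, and that of Mmp13 spans bases -35 to -29. Over all members, the AP-1 motif was present in 8 of the 9 genes of the chromosome 9 block, Mmp8 being the exception, and in 0 of 22 members outside it. Across all 32851 promoter windows it was present in 6.75%. Shares of all windows count single windows, whereas a gene could match in any of its windows, so these are unlike measures. The Sp1 motif was present in 0 of the 9 genes of the block and in 16 of the 22 members outside it, against 32.7% of all windows. It was present in 11 of the 14 tested members and in 5 of the 17 untested ones, which include the block. The windows also differed in base composition: 63.2% G and C in Mmp11, 63.6% in Mmp15 and 76.4% in Adamts14, against 37.6% in Mmp3 and 40.4% in Mmp13, with a median of 52.4% over all windows. The PEA3 motif was found in 13 of the 31 members and 29.5% of all windows, and the FOXO motif in 2 members and 3.17% of all windows. A match is a description of the letters, not evidence of a bound site, and neighbouring genes of the block are related copies rather than independent cases.

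Mmp11, stromelysin-3, was the member that rose at the oldest age. This enzyme is unusual among secreted metalloproteinases in being activated inside the cell by furin. Its relative log2 levels on the 4 arrays were -0.80, -0.78, -0.75 and -0.91 at 3 months and -1.13, -0.71, -0.63 and -0.74 at 15 months. They were -1.20, -1.74, -0.67 and -0.66 at 24 months and -0.59, -0.02, 0.01 and 0.50 at 29 months. Every 29-month array lay above every array of the 3 younger ages, with the first 29-month array close to the highest 15-month array. From 24 to 29 months, within 1 slide, Mmp11 was 2.06-fold higher (log2 change 1.04, SE 0.24, n = 4 per age; limma adjusted p = 0.0390). From 3 to 29 months it was 1.72-fold higher (log2 change 0.78, SE 0.24; limma adjusted p = 0.0388). From 3 to 15 months the change was 0.01 (95% interval -0.50 to 0.51; limma adjusted p = 0.999).

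A second Mmp11 probe, tested on its own with adjustment over all kept probes, gave log2 changes of 1.22 from 24 to 29 months (limma adjusted p = 0.0250) and 0.92 from 3 to 29 months (limma adjusted p = 0.0230). The contrast between early and late steps was not called: the 24-to-29-month change exceeded the 3-to-15-month change by 1.04 on the log2 scale (SE 0.34; limma unadjusted p = 0.00772, limma adjusted p = 0.197). Both Mmp11 calls lay close to the threshold. The call from 3 to 29 months was lost when 1 array was left out, either any 3-month array, replicate 2 of 15 months or replicates 2, 3 or 4 of 29 months, and under quantile normalization, median scaling, the deposited table or no filter (limma adjusted p up to 0.129). The call from 24 to 29 months was lost when 1 array was left out, either any 3-month array, replicates 2, 3 or 4 of 15 months, replicates 1 or 2 of 24 months or replicates 2, 3 or 4 of 29 months, and under median scaling, no filter or a fit of only those ages (limma adjusted p up to 0.310).

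Mmp15, a metalloproteinase anchored in the cell membrane, fell. Its relative log2 levels were -0.12, -0.28, -0.04 and -0.20 at 3 months and -0.52, -0.50, -0.32 and -0.50 at 15 months. They were -0.36, -1.31, -0.64 and -0.81 at 24 months and -1.39, -1.0, -1.31 and -0.70 at 29 months. The means were lower at each successive age, from -0.16 ± 0.10 to -0.46 ± 0.09, -0.78 ± 0.40 and -1.10 ± 0.31 (SD, n = 4), and the arrays of 15, 24 and 29 months all lay below those of 3 months. At 29 months Mmp15 was 1.92-fold lower than at 3 months (log2 change -0.94, SE 0.18; limma adjusted p = 0.00314). The intermediate comparisons were not called, with changes of -0.30 from 3 to 15 months (95% interval -0.68 to 0.08; limma adjusted p = 0.636) and -0.62 from 3 to 24 months (-1.0 to -0.24; limma adjusted p = 0.0637). From 24 to 29 months the change was -0.32 (-0.70 to 0.07; limma adjusted p = 0.435). The call from 3 to 29 months spans both slides.

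Adamts14, 1 of the procollagen propeptidases, also fell. Its relative log2 levels were 0.03, 0.00, 0.42 and 0.17 at 3 months and -0.23, 0.03, -0.18 and -0.03 at 15 months. They were -0.45, -0.40, -0.35 and -0.52 at 24 months and -1.06, -0.57, -1.24 and -0.08 at 29 months. At 24 months the 4 arrays agreed closely (SD 0.07) and lay below all arrays of 3 and 15 months, whereas at 29 months they spread widely (SD 0.52), the highest of them within the range of 15 months. At 29 months Adamts14 was 1.86-fold lower than at 3 months (log2 change -0.89, SE 0.19; limma adjusted p = 0.00693). A second probe, above background on 7 of the 16 arrays and not tested, had means of -3.43, -3.27, -2.97 and -3.32 from 3 to 29 months, which were not lower with age. The change of the tested probe from 3 to 24 months was -0.59 (95% interval -1.0 to -0.17; limma adjusted p = 0.101) and that from 24 to 29 months -0.31 (-0.72 to 0.11; limma adjusted p = 0.489). The 29-month call was lost in a fit of only the ages compared (limma adjusted p = 0.0567) and without the 4 arrays of lowest weight (limma adjusted p = 0.0580).

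**Figure D2:**
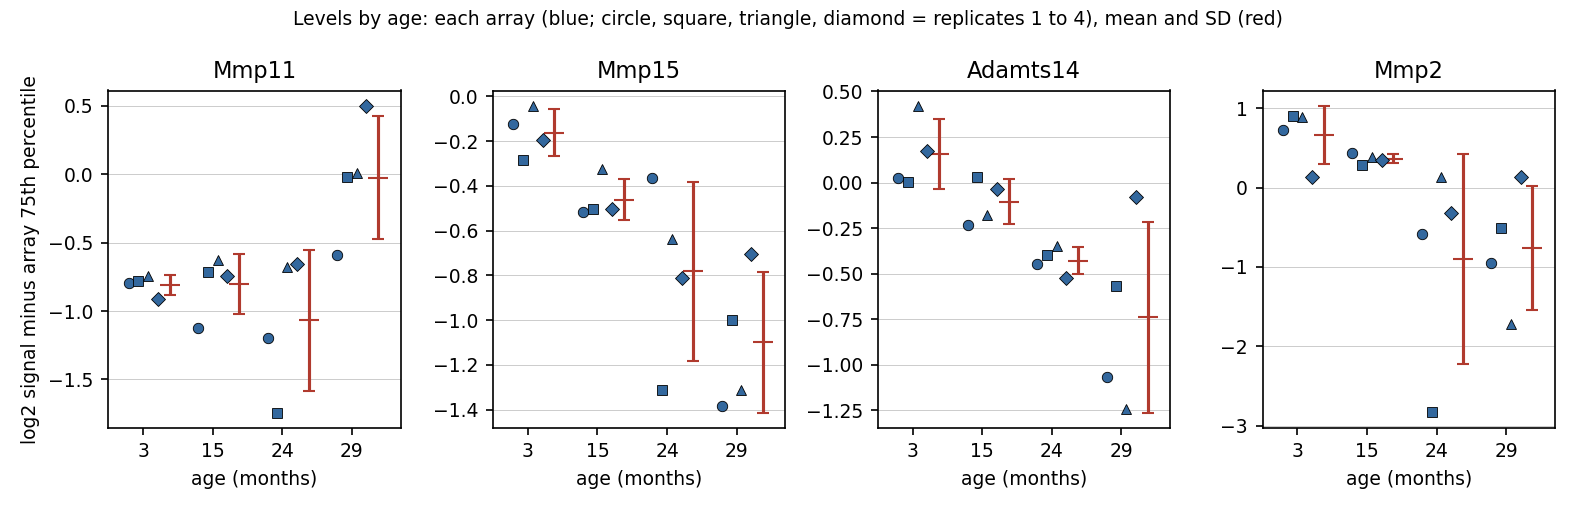
Relative log2 level (vertical axis, log2 signal minus array 75th percentile) by age in months (horizontal axis) for Mmp11, Mmp15, Adamts14 and Mmp2; symbols are single arrays and red marks give mean and SD of 4 arrays. Mmp11 at 29 months sits above all younger arrays, Mmp15 and Adamts14 at 29 months sit below all 3-month arrays, and Mmp2 has 1 array at -2.84 at 24 months.

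Adamts2, which acts on the same procollagens as Adamts14, had lower levels at the older ages without being called. Its relative log2 levels ran from 1.75 to 2.13 at 3 months, 1.16 to 1.84 at 15 months, 0.02 to 1.40 at 24 months and 0.52 to 1.75 at 29 months. All arrays of 24 months and of 29 months lay below all arrays of 3 months, the highest 29-month array just below the lowest of 3 months. The change was -0.96 from 3 to 24 months (95% interval -1.59 to -0.32; limma adjusted p = 0.0846) and -0.84 from 3 to 29 months (-1.48 to -0.21; limma adjusted p = 0.0731).

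Mmp2, the gelatinase that cuts denatured and basement membrane collagen, had the largest change among the 20 tested genes from 3 to 29 months, without being called. Its relative log2 levels were 0.72, 0.91, 0.90 and 0.13 at 3 months and 0.43, 0.29, 0.39 and 0.35 at 15 months. They were -0.58, -2.84, 0.13 and -0.32 at 24 months and -0.95, -0.51, -1.73 and 0.13 at 29 months. The 15-month arrays were nearly equal, whereas single arrays of 24 and 29 months were far below the rest of their age, and the highest arrays at both ages reached the lowest of 3 months. The change from 3 to 29 months was -1.43 (95% interval -2.51 to -0.34; limma adjusted p = 0.0747), and from 3 to 24 months it was -1.57 (-2.65 to -0.48; limma adjusted p = 0.0945). From 15 to 24 months, where the arrays did not overlap, it was -1.27 (-2.35 to -0.18; limma adjusted p = 0.309). Without replicate 2 of 24 months, the array at -2.84, Mmp2 was called between 3 and 29 months (limma adjusted p = 0.00715).

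Mmp14, the membrane enzyme that activates the Mmp2 precursor together with Timp2, was above background on 14 of the 16 arrays. Its relative log2 levels were 0.17, -2.73, -2.39 and -3.35 at 3 months, and ran from -3.11 to -2.50 at 15 months, -2.81 to -2.19 at 24 months and -2.73 to -1.91 at 29 months. A single 3-month array stood far above all the others, which made the SD at 3 months 1.55, the largest of the 20 tested genes at any age. The change from 3 to 29 months was -0.17 (95% interval -1.30 to 0.95; limma adjusted p = 0.870), and without that array, replicate 1 of 3 months, it was 0.57 (limma adjusted p = 0.174). On that same array Adamts4, an aggrecan-cleaving enzyme, had its only signal above background, at 0.52, with its other 15 arrays between -5.79 and -4.26. Apart from Mmp15, the other membrane-bound enzymes tested were not called. Mmp17 had a change from 3 to 29 months of -0.17 (-0.48 to 0.15) and Mmp24 of 0.24 (-0.23 to 0.71), and Mmp23, a membrane-tethered enzyme of another build, had 0.17 (-0.38 to 0.73).

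All 4 TIMPs were above background on every array, and limma called 0 of them in each of the 5 comparisons, with Timp1 and Timp2 at unadjusted p under 0.05 from 15 to 24 months and Timp2 from 3 to 29 months. Timp2, the inhibitor that also takes part in Mmp2 activation, had relative log2 levels of 5.30, 5.52, 5.80 and 5.19 at 3 months and 5.71, 5.65, 5.68 and 5.47 at 15 months. At 24 months they were 5.03, 4.18, 5.24 and 5.41, and at 29 months 4.92, 4.99, 4.03 and 5.42. All 24-month arrays lay below all 15-month arrays, and 1 array at each of 24 and 29 months stood well below the rest of its age. The change was -0.67 from 15 to 24 months (95% interval -1.26 to -0.07; limma adjusted p = 0.329) and -0.61 from 3 to 29 months (-1.21 to -0.02; limma adjusted p = 0.163). Its second probe had a change of -0.30 from 3 to 29 months (-0.77 to 0.18; limma adjusted p = 0.413).

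Timp1, the inhibitor that cytokines and injury induce, had levels of -1.91, -1.87, -1.85 and -1.54 at 3 months and -2.65, -2.97, -2.27 and -2.07 at 15 months. At 24 months they were -0.48, -1.15, -1.88 and -2.11, and at 29 months -2.02, -1.28, -3.08 and -0.04. All 15-month arrays lay below all 3-month arrays, and the spread between arrays then widened from an SD of 0.17 at 3 months to 1.28 at 29 months. The change from 3 to 29 months was 0.19 (95% interval -0.87 to 1.24; limma adjusted p = 0.848), and from 15 to 24 months 1.09 (0.03 to 2.14; limma adjusted p = 0.361).

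Timp3, which binds to the matrix and also inhibits ADAMTS enzymes, had levels of 3.64, 3.96, 4.27 and 4.10 at 3 months and 3.77, 4.38, 3.97 and 4.20 at 15 months. At 24 months they were 3.49, 2.81, 4.17 and 4.27, and at 29 months 3.35, 4.07, 3.34 and 3.93. The ages overlapped in every comparison, and the change from 3 to 29 months was -0.32 (95% interval -0.93 to 0.29), not called by limma. Timp4, an inhibitor known for its abundance in heart and muscle, had levels of 1.53, 2.29, 2.27 and 2.72 at 3 months and 2.55, 2.86, 2.46 and 2.57 at 15 months. At 24 months they were 2.35, 1.28, 2.65 and 2.92, and at 29 months 2.53, 2.51, 1.98 and 2.50. These ages also overlapped throughout, with a change from 3 to 29 months of 0.18 (-0.47 to 0.82; limma adjusted p = 0.754).

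Of the 5 tested proteoglycan-cleaving enzymes limma called 0 in each of the 5 comparisons, with 1 at unadjusted p under 0.05 in each except 15 to 24 months, which had 0. Adamts1, an enzyme of versican turnover, had relative log2 levels of 1.92, 1.86, 2.59 and 2.47 at 3 months and 2.33, 2.55, 2.36 and 2.51 at 15 months. At 24 months they were 2.08, 2.49, 2.35 and 1.97, and at 29 months 2.23, 2.70, 3.06 and 3.17. Of the 29-month arrays 3 lay above every younger array. The change was 0.57 from 24 to 29 months (95% interval 0.12 to 1.01; limma adjusted p = 0.201) and 0.58 from 3 to 29 months (0.13 to 1.02; limma adjusted p = 0.0807).

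Adamts5, a main aggrecanase, had levels of -1.36, -1.51, -1.79 and -1.74 at 3 months and -1.07, -0.97, -1.49 and -1.16 at 15 months. At 24 months they were -1.37, -2.46, -0.95 and -1.12, and at 29 months -1.37, -0.67, -1.65 and -0.83. The ages overlapped in every comparison. The change from 3 to 29 months was 0.47 (95% interval -0.14 to 1.08; limma adjusted p = 0.302), and its second probe gave 0.41. Adamts9 and Adamts15 were lower on all 15-month arrays than on all 3-month arrays, with changes of -0.60 (-1.08 to -0.12; limma adjusted p = 0.309) and -0.79 (-1.62 to 0.04; limma adjusted p = 0.498). By 29 months the change against 3 months was -0.05 for Adamts9 (-0.53 to 0.43) and -0.75 for Adamts15 (-1.58 to 0.08).

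Adamts8 had a pair of probes that went apart with age, described here after their values were seen. The brighter probe, which represented the gene, stayed between -1.38 and -0.84 on all 16 arrays, with a change from 3 to 29 months of 0.05 (95% interval -0.21 to 0.31; limma adjusted p = 0.827). On the dimmer probe the levels were -1.48, -1.09, -1.17 and 0.02 at 3 months, -1.92, -2.41, -2.06 and -1.46 at 15 months, -2.27, -2.86, -3.19 and -1.81 at 24 months and -2.24, -3.10, -4.27 and -3.09 at 29 months. Its mean was lower at each successive age, and at 29 months only 2 of the 4 arrays were above background. Tested on its own with adjustment over all kept probes, this probe was 4.75-fold lower at 29 than at 3 months (log2 change -2.25, SE 0.41; limma adjusted p = 0.00254) and 3.04-fold lower at 24 than at 3 months (log2 change -1.60, SE 0.41; limma adjusted p = 0.0405). The gap between the probes' changes was 2.30, against a median of 0.17 over 3145 genes with a RefSeq symbol and more than 1 kept probe, of which 6 (0.191%) had a gap at least as large. Where on the transcript these probes lie was not analysed here. The mean of both probes gave a log2 change of -1.10 for Adamts8 (limma adjusted p = 0.00343), opposite in sign to the brighter probe.

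**Figure D3:**
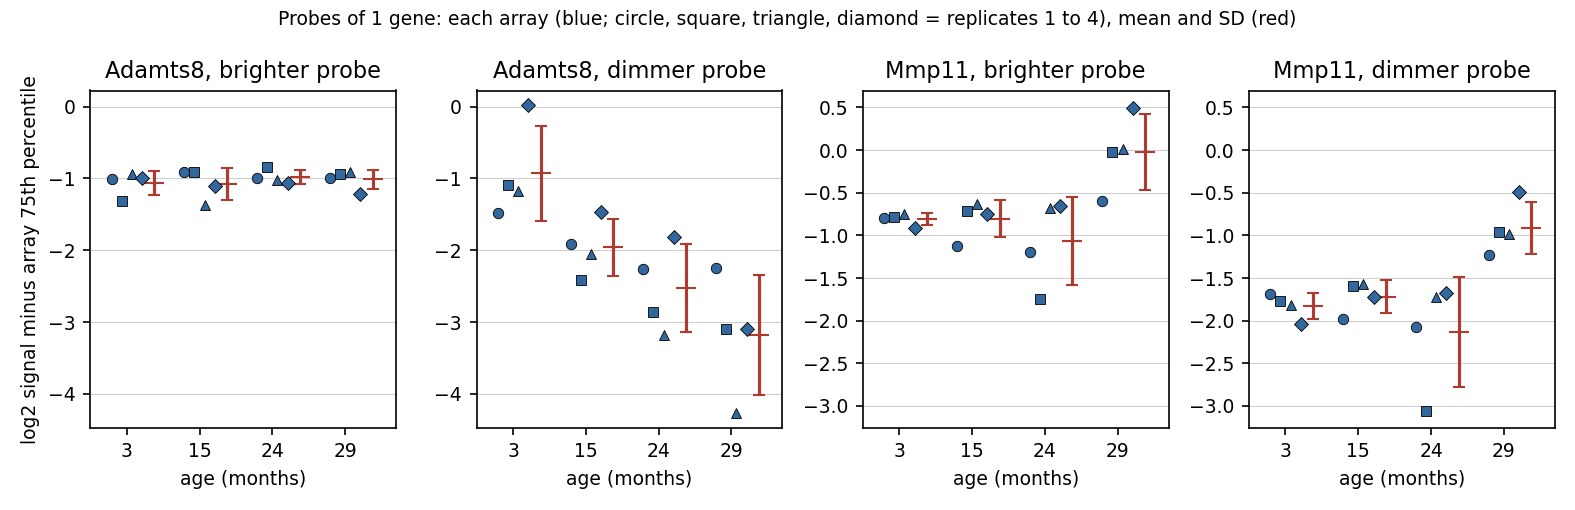
Relative log2 level (vertical axis) by age in months (horizontal axis) on the brighter and dimmer probe of Adamts8 and of Mmp11; symbols are single arrays, red marks are mean and SD of 4 arrays, and both probes of a gene share 1 scale. The brighter Adamts8 probe stays level while the dimmer one reaches -4.27 at 29 months, and both Mmp11 probes are highest at 29 months.

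The remaining ADAMTS genes, Adamts10, an enzyme of fibrillin microfibrils, and Adamts12, which cleaves cartilage oligomeric matrix protein, were each above background on 15 arrays. Adamts10 had a change from 3 to 29 months of -0.33 (95% interval -0.75 to 0.10; limma adjusted p = 0.308) and Adamts12 of -0.26 (-1.27 to 0.74; limma adjusted p = 0.764). The sign for Adamts12 turned with normexp background correction (0.12), with the deposited table (0.0020) and without replicate 4 of 29 months (0.05). Adamts10 was lower on all 24-month arrays than on all 15-month arrays (-0.37; -0.80 to 0.06).

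Counted over the 20 tested genes, the calls were few. Between 3 and 29 months limma called 3 of 20, against 14.6% of all 21777 genes. Mmp11 was the 1 higher member (6.99% of all genes were higher) and Mmp15 and Adamts14 were the 2 lower ones (7.66% of all genes were lower). At unadjusted p under 0.05 there were 7 of 20, against 28.7% of all genes. Without replicate 2 of 24 months 6 members were called in that comparison, the additional ones being Mmp2, Adamts2 and Adamts15, all lower. Between 24 and 29 months limma called 1 of 20, Mmp11, against 1.91% of all genes in either direction and 1.47% higher, and 2 of 20 had an unadjusted p under 0.05, against 15.3%.

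In the remaining comparisons limma called 0 members. The 15- against 3-month comparison had 1 member, Adamts9, at unadjusted p under 0.05, against 10.7% of all genes, with 0.978% of all genes called. The 24- against 3-month comparison had 5 members (Adamts2, Adamts14, Adamts15, Mmp2 and Mmp15) at unadjusted p under 0.05, against 21.2% of all genes, with 4.66% of all genes called. Without replicate 1 of 24 months, replicate 3 of 24 months or replicate 4 of 29 months, its count of called members was 1, 1 and 2. The 24- against 15-month comparison had 3 members (Mmp2, Timp1 and Timp2) at unadjusted p under 0.05, against 13.4% of all genes, with 0.0964% of all genes called. A linear trend with age, fitted with a slide term, had 1 member, Mmp15, at unadjusted p under 0.05, against 10.9% of all genes, with 0.634% of all genes called. The test of late against early steps within slides had 3 members (Mmp11, Adamts9 and Adamts15) at unadjusted p under 0.05, against 12.5% of all genes, with 0.670% of all genes called.

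Arrays that did not overlap between ages were more frequent than calls. Comparing 29 with 3 months, all arrays of 1 member were higher (8.74% of all genes) and those of 4 were lower (11% of all genes), namely Mmp15, Adamts14, Adamts2 and Adamts15. Comparing 24 with 3 months, 4 of 20 were lower (Mmp15, Adamts14, Adamts2 and Adamts15), against 9.08% of all genes. Comparing 15 with 3 months, 4 of 20 were lower (Mmp15, Adamts9, Adamts15 and Timp1), against 6.35%. Comparing 24 with 15 months, 4 of 20 were lower (Mmp2, Timp2, Adamts14 and Adamts10), against 5.79%. Comparing 29 with 24 months, 1 of 20 was higher, against 4.71%. The median log2 change of the 20 members was -0.26 from 3 to 24 months and -0.17 from 3 to 29 months, beside -0.02 and -0.04 over all genes. From 24 to 29 months it was 0.07, beside -0.03. The comparisons with 3 months share their control arrays, and the 20 genes passed a filter on background, so these counts describe the tested members and not all 45.

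**Figure D4:**
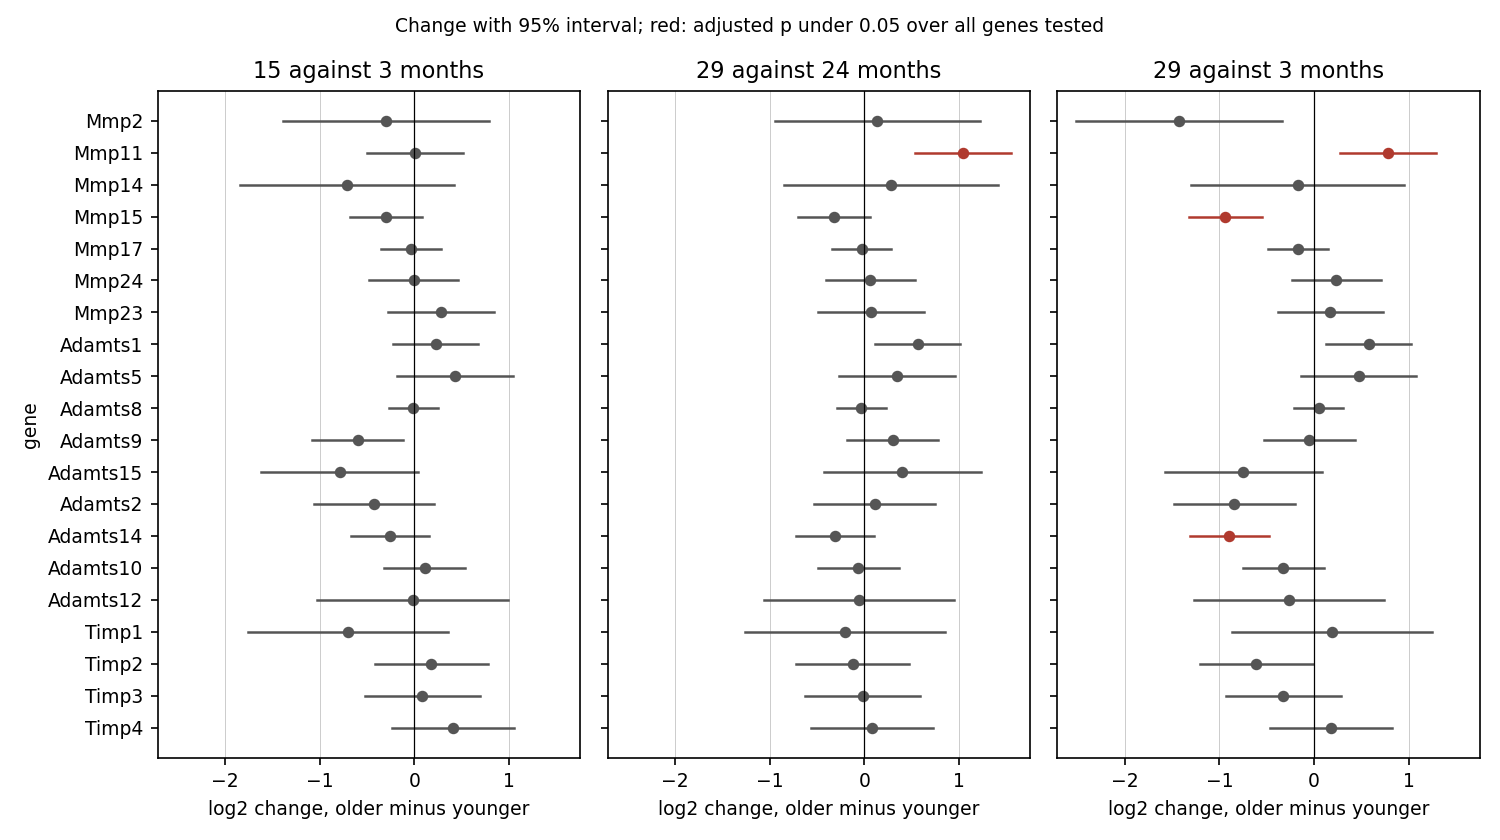
Log2 change, older minus younger (horizontal axis), with 95% interval for the 20 tested genes (vertical axis) from 3 to 15 months, from 24 to 29 months and from 3 to 29 months; red marks limma adjusted p under 0.05. Mmp11 is red in the second and the last panel, and Mmp15 and Adamts14 are red in the last.

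The members' spread between samples was wider than that of all genes, above all at the older ages. The median SD over the 4 arrays of an age was 0.27 at 3 months, 0.22 at 15, 0.46 at 24 and 0.43 at 29 months for the 20 members, beside 0.16, 0.16, 0.23 and 0.25 over all genes. The same arrays were low for many members. At 24 months replicate 2 was the lowest of the 4 arrays for 12 of the 20 members (60%), against 28.6% of all genes. At 29 months replicate 3 was the lowest for 13 of the 20 (65%), against 18.9% of all genes. Mmp2, Mmp14, Mmp23, Adamts2, Adamts5, Adamts9, Adamts15, Timp2, Timp3 and Timp4 were lowest on both. Adamts1, Adamts8, Adamts10 and Adamts12 went the other way at 24 months, with their highest level of that age on replicate 2.

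Several marker lists were low on these arrays, the fibroblast markers among them. Over all 12 of these markers, each measured, the mean deviation from the gene's mean lay between 0.24 and 0.78 on the 3-month arrays and between 0.21 and 0.43 on the 15-month arrays. At 24 months it ran from -1.73 to 0.20 and at 29 months from -1.37 to 0.47, with the lowest value of each age on the array that was lowest for most members. The endothelial and the macrophage markers were also lowest there, at -1.02 and -1.04 on replicate 2 of 24 months and at -0.54 and -0.49 on replicate 3 of 29 months. The smooth muscle, tendon, erythroid and neutrophil markers were lowest of their age on the former array only (-0.68, -0.58, -1.58 and -0.30). The adipocyte, Schwann cell and satellite cell markers were lowest on the latter only (-2.05, -1.53 and -0.30). Other lists were highest of their age there. These were the Schwann cell and the T and NK cell markers on the former (0.42 and 0.29). On the latter they were the neutrophil and erythroid markers (1.86 and 1.25). The part of these cell types in the members' values was not tested. Without those 2 arrays the calls from 3 to 29 months were Mmp11, Mmp15, Adamts14, Mmp2 and Adamts5, and Mmp11 was not called from 24 to 29 months.

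**Figure D5:**
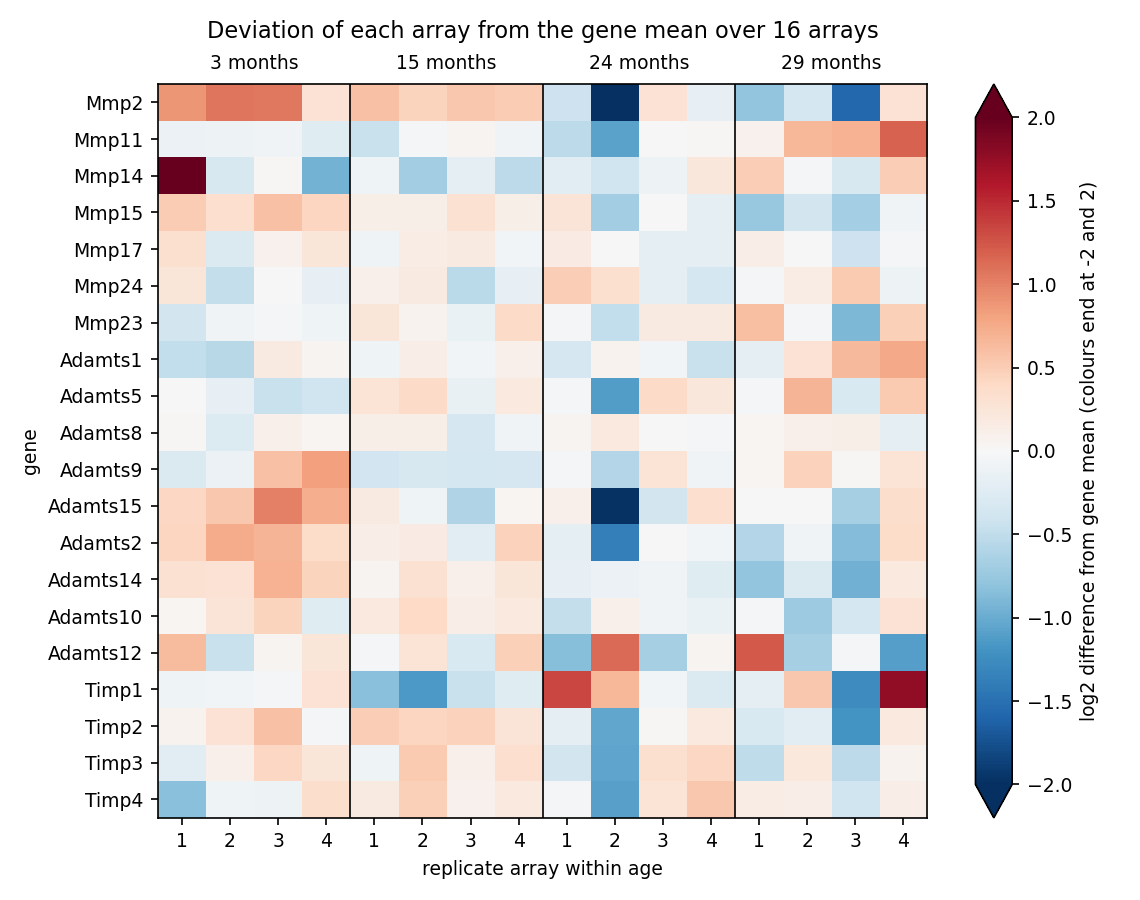
Deviation of each array (horizontal axis, 4 replicates per age) from the gene's mean over 16 arrays, in log2 units (colour), for the 20 tested genes (vertical axis). Replicate 2 of 24 months and replicate 3 of 29 months are blue for most genes, and the first 3-month array is far above the rest for Mmp14.

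Several fibrillar collagens, which are substrates of these enzymes, were lower at 29 than at 3 months, where age and slide cannot be told apart. Of the 18 listed matrix proteins 16 were tested, and from 3 to 29 months 0 were higher and 4 were lower. In that comparison 14.6% of all genes were called. Col1a1, the main chain of type I collagen, was lower by 2.59 on the log2 scale (limma adjusted p = 0.00477). Col1a2, Col3a1 and Col5a1 were lower as well. The median change of the 16 was -0.78. From 3 to 24 months, also across slides, 3 of 16 were lower, Col1a1, Col1a2 and Col3a1 (4.66% of all genes were called). Within slides, from 3 to 15 and from 24 to 29 months, limma called 0 of 16, with 3 and 0 at unadjusted p under 0.05. The median change of the 16 was -0.23 from 3 to 15 months and 0.10 from 24 to 29 months. On the slide of the younger ages, their mean deviation ran from 0.43 to 0.80 at 3 months and from 0.04 to 0.28 at 15 months. Their mean deviation was lowest on replicate 2 of 24 months (-1.23) and replicate 3 of 29 months (-1.14). It reached 0.09 and 0.33 on other arrays of those ages. The fibroblast list shares Col1a1 and Col1a2 with the substrates, and these were 2 of its 3 lower genes from 3 to 29 months, beside Cd34.

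Among other inhibitors of matrix proteolysis Serpine2, a thrombin inhibitor, was lower at 29 than at 3 months by 1.96-fold (log2 change -0.97, SE 0.19; limma adjusted p = 0.00311). Of 9 tested activators of these enzymes, which include furin and the plasminogen activators, limma called 0, with 2 at unadjusted p under 0.05. Of 13 other matrix proteases 1 was higher and 1 was lower from 3 to 29 months, beside 6.99% and 7.66% of all genes. Ctsl, a lysosomal cathepsin, was the higher one, by 1.57-fold (limma adjusted p = 0.00696). Adam17, the sheddase of tumour necrosis factor, was the lower one, by 1.49-fold (limma adjusted p = 0.0483). Ctsl was also higher from 24 to 29 months, by 1.74-fold (limma adjusted p = 0.0123). Of the 2 tested clearance receptors, Mrc2, which takes up collagen fragments, was 2.28-fold lower at 29 than at 3 months (limma adjusted p = 0.0295). In that comparison 7.66% of all genes were lower.

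Of 11 tested factors known to induce metalloproteinases, 2 were higher from 3 to 29 months (6.99% of all genes were higher) and 0 lower. Jun was 2.52-fold higher (log2 change 1.33, SE 0.16; limma adjusted p = 0.000149) and Fos 4.31-fold higher (log2 change 2.11, SE 0.50; limma adjusted p = 0.0110). Both were also higher from 24 to 29 months (1.47% of all genes were higher), by 1.83-fold (limma adjusted p = 0.0167) and 4.51-fold (limma adjusted p = 0.0392). Jund was 1.36-fold lower at 24 than at 3 months (limma adjusted p = 0.0434), the 1 called factor of that comparison (4.66% of all genes were called). Jun, Jund and Fos are subunits of AP-1.

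Markers of cells that are rich in some undetected members were also read. Of 4 tested neutrophil markers 2 were higher from 3 to 29 months, beside 6.99% of all genes. These were S100a8, by 13.5-fold (limma adjusted p = 0.0110), and S100a9, by 8.11-fold (limma adjusted p = 0.00774). Ltf, Mpo, Retnlg and Cxcr2 did not pass the filter on background. Mmp8 and Mmp9, which neutrophils carry, had 0 arrays above background at any age. Of 8 tested macrophage markers limma called 0 from 3 to 29 months, with 2 at unadjusted p under 0.05. Lower at 29 than at 3 months were 3 of 8 endothelial markers (Tek, Cdh5 and Tie1), 4 of 8 smooth muscle and pericyte markers (Smtn, Pdgfrb, Cspg4 and Rgs5) and 3 of 6 tendon markers (Kera, Fmod and Chad), beside 7.66% of all genes. No marker of these 3 lists was higher. Between 3 and 29 months the range over arrays of the mean deviation went from 0.22 to 0.50 down to -0.54 to 0.17 for the endothelial list, from 0.17 to 0.71 down to -0.70 to -0.11 for the smooth muscle list and from 0.32 to 1.0 down to -0.82 to 0.07 for the tendon list, in which Tnmd and Mkx did not pass the filter. Their part in the fall of Mmp15 and Adamts14 was not tested.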

How the data were processed

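RNA of 16 gastrocnemius samples was measured on Agilent 1-colour arrays. The scanner files give each spot's intensity, which Feature Extraction 10.7.1.1 had background-subtracted without normalizing between arrays, per the file headers. A deposited table of log2 values, whose making no source used here states, matched the scanner files by feature number (r 0.985 to 0.993) and not by probe name (r -0.005 to 0.0183) and served as an alternative only.

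Of 62976 spots on an array, 59305 were not controls. Dropping 93 probes marked as outliers left 55588, and 26540 of these had a RefSeq name (assembly GRCm38.p6, used for names, gene order and promoter windows, since the headers name build mm9). From the log2 signals of an array their 75th percentile was subtracted. A probe counted as above background on an array if at least 0.5 of its spots did, and 28435 probes of 21777 genes passed the filter.

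Age groups follow the sample labels. The limma models (version 3.58.1, R 4.3.3) used all 16 arrays, with 12 residual and 2.73 prior degrees of freedom, were two-sided and were checked on simulated data. Intervals are 95%. Replicate numbers entered only an alternative fit.

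The members, the gene lists, the motifs, the rule for the genes described by array (members called, the TIMPs, Mmp2, Mmp14, Adamts1 and Adamts5, and up to 4 called genes per list) and the alternatives were chosen with earlier results of these data known. Some results of the gene lists are not reported here. Adamts2 and the dimmer Adamts8 probe were described after their values were seen. Alternatives changed the normalization (quantile, median), the background correction (normexp with offset 50 on median spot signals), the source (the deposited table), the filter, the probe rule, the ages fitted, the block (replicate number, slide), the eBayes setting, the array weights and the arrays included.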

Additional observations from a re-analysis of the deposited data

Results flagged for a closer look

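Single arrays stood apart from the other 3 of their age for 5 of the 20 tested genes. Adamts2 at 24 months was lowest on replicate 2, at a relative log2 level of 0.0169. Mmp15 at 15 months was highest on replicate 3, at -0.32. Mmp23 at 3 months was lowest on replicate 1, at -2.66. Timp1 at 3 months was highest on replicate 4, at -1.54. Timp4 at 29 months was lowest on replicate 3, at 1.98. With 96 groups of 4 arrays examined, 5 such arrays compare with 4.8 that chance would give at 1 in 20.

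Signal above background was also seen for 7 genes that were not tested. Mmp12 was above background on 6 of the 16 arrays, Mmp3 on 4, Mmp10 on 3 and Adamts18 on 2. Adamts4, Adamts17 and Mmp19 were above background on 1 array each.

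Mmp3, a stromelysin, had its 4 arrays above background spread over 15, 24 and 29 months. Their relative log2 levels were -3.05 on replicate 4 of 15 months and -1.41 on replicate 4 of 24 months. At 29 months they were -1.17 on replicate 1 and -1.76 on replicate 4. The other 24-month arrays ran from -4.99 to -4.53, and the other 29-month arrays were at -3.68 and -5.45. At 3 months the levels of Mmp3 ran from -5.30 to -3.32. Mmp12 was above background on 1 array at 15 months, 3 at 24 months, 2 at 29 months and 0 at 3 months. Its levels overlapped, from -4.01 to -3.15 at 3 months, -3.71 to -2.95 at 24 months and -4.08 to -2.87 at 29 months. These counts are therefore no comparison between ages.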

How the results depend on the processing

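Mmp15 kept its call from 3 to 29 months in all 30 alternatives (limma adjusted p 0.000861 to 0.0247). Adamts14 kept its call in all but 2 of them, and Mmp11 lost its calls in 12 from 3 to 29 months and in 17 from 24 to 29 months, always with a positive change. Of 2980 single-gene values under the alternatives, 2766 kept direction and side of the threshold, 154 changed sign without being called in either fit, 31 lost a call, 28 gained one and 1 changed sign into a call, which was Adamts8 from 3 to 29 months at -1.10 with the mean over probes. From 3 to 29 months the members whose sign turned without a call were Adamts8, Adamts9, Adamts12, Mmp14, Mmp23, Timp1, Timp3 and Timp4. The count of members called from 3 to 29 months was 5 with normexp background correction, 5 without the 2 arrays low in matrix genes, 6 without the 4 arrays of lowest weight and 2 to 6 with 1 array left out. From 24 to 29 months it was 0 with median scaling, no filter, only the ages compared, and without the 2 or the 4 arrays, and 0 to 1 with 1 array left out. From 3 to 24 months it was 3 with normexp, 1 with the deposited table, 1 with only the ages compared and 0 to 2 with 1 array left out. From 3 to 15 months it was 1 without the 4 arrays. The line in age called 3 with slide as a random block and 4 with no slide term. Median scaling moved the median of all genes to -0.15 from 3 to 24 months. It raised the share of higher genes among all calls from 24 to 29 months from 76.7% to 90.8%, and the deposited table lowered it to 60.4%. The causes were not tested.

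With the replicate number as a block the counts were 3 from 3 to 29 months and 1 from 24 to 29 months, and no other member count changed. The labels do not say whether the numbers pair samples, and the numbers follow array position on the slide. Over 24 pairs with the same number the correlation of deviations ran from -0.47 to 0.30, and 6 were over 0.1. Of the 16 arrays 5 were closest to their own number. Such correlations cannot show whether the samples are paired.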

Other observations

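The other marker lists gave single calls from 3 to 29 months. Jchain, of plasma cells, was 9.55-fold higher (limma adjusted p = 0.0284), 1 of 3 tested B and plasma cell markers. The mean deviation of these 3 markers was 3.09 on replicate 1 of 29 months, and -0.63, 0.12 and 0.32 on the other arrays of that age. At 3 months it ran from -0.99 to -0.56. Of 3 satellite cell markers Pax7, a factor of muscle stem cells, was 1.66-fold lower (limma adjusted p = 0.0251). Of all genes 6.99% were higher and 7.66% were lower in that comparison. Limma called 0 of 6 adipocyte, 0 of 4 erythroid and 0 of 3 T and NK cell markers, with 0, 2 and 0 at unadjusted p under 0.05.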
